A study of Mus musculus with 81 samples.

Results

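Ddx4, Dazl, Kit, Tex14, Sycp3 and Pou5f1 are genes by which germ cells of the fetal testis are commonly recognised. The genes were taken by name, and their RNA was read through the long terminal repeat (LTR) loci that lie inside them. An LTR locus counted as a member when it lay within the GENCODE body of one of these genes on the GRCm38 mouse genome. Of 970384 loci measured in 62 RNA libraries, 126 did so, and they came from 64 species of LTR repeat and were 12 to 2471 bp long. Loci of one intron that held the same value in every library were counted once, which left 116 distinct signals. Tex14 held 87 loci (86 distinct signals), Ddx4 19 (15), Kit 17 (12), Dazl 2 and Pou5f1 1. These genes lie at chr11:87405065-87555823, chr13:112598333-112652475, chr5:75574916-75656722, chr17:50279395-50293636 and chr17:35506018-35510772. All loci were intronic except 3 in exons of Kit and 1 in an exon of Dazl. Sycp3, at chr10:88459569-88473236, held no LTR locus, so no value is given for it.

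The libraries came from testes of E18.5 male fetuses of the OG2 strain, in which a Pou5f1-driven EGFP transgene marks the germline. All groups carried this transgene. F0 dams received 50 nM tributyltin (TBT), an organotin compound, or the solvent DMSO in their drinking water, and fetuses were taken in the F1 generation and in the F3 generation, which descends from those dams and was not itself treated. EGFP-positive germline cells were sorted by side scatter into the populations P4 and P5, and EGFP-negative somatic cells were collected as P6. In F1 there were 5 DMSO and 7 TBT libraries of P4, 4 and 7 of P5, and 5 and 7 of P6. In F3 each population had 4 DMSO and 5 TBT libraries. The labels do not say which fetuses shared a litter, so p-values measure the spread between these libraries.

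The 5 measured genes stand for different parts of germ cell biology. Ddx4 encodes the VASA RNA helicase of germ granules, and Dazl encodes an RNA-binding protein that controls translation in germ cells. Tex14 is required for the intercellular bridges that join sister germ cells. Kit is the receptor tyrosine kinase for KIT ligand and is known from primordial germ cells and differentiating spermatogonia, and Sycp3 encodes a protein of the synaptonemal complex. Pou5f1 (Oct4) is a pluripotency factor kept on in the fetal germline, and its regulatory sequence drives the EGFP by which the cells were sorted. At E18.5 male germ cells are quiescent prospermatogonia, which are about to resume division after birth.

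Most members lie in introns and were read on poly(A)-primed cDNA. One locus per gene is shown from the GRCm38 sequence, on the strand of the gene, with the locus in capitals and flanking bases in lower case. The single Pou5f1 locus, an MT2_Mm repeat at chr17:35508551-35508748, is shown because every Pou5f1 value below rests on it, and it ends 56 bases before the start of the annotated transcript Pou5f1-202. The intronic Dazl locus is shown because it is the 1 Dazl locus outside an exon, and the shortest Ddx4, Kit and Tex14 loci because each held the counts, or nearly the counts, of a longer locus of its intron.
Pou5f1 MT2_Mm (chr17:35508551-35508804, + strand): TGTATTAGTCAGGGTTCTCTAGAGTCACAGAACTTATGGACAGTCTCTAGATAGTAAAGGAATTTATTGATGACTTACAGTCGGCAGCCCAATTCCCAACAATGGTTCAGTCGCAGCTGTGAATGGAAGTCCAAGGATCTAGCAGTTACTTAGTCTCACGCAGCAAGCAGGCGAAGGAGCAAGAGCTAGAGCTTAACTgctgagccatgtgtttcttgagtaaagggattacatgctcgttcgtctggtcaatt
Dazl ORR1C1 (chr17:50289428-50289526, - strand): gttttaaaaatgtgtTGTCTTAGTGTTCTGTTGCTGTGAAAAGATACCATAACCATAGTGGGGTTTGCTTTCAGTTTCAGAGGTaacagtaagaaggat
Ddx4 ORR1D1 (chr13:112608597-112608693, - strand): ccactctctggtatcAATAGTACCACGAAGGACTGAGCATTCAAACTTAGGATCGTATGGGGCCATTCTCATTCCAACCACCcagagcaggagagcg
Kit RLTR17B_Mm (chr5:75618524-75618575, + strand): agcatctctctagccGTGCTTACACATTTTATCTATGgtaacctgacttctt
Tex14 RLTR17D_Mm (chr11:87491371-87491412, + strand): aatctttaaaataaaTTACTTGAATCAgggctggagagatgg

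The 67-base ORR1D1 piece in Ddx4 and a 419-base ORR1D1-int locus of the same intron held identical read counts in 41 of 41 germline libraries, with medians of 567 reads in F1 P4 and 472 in F1 P5. In Kit, the 22-base RLTR17B_Mm piece and a 333-base ORR1F locus were identical in 41 of 41 libraries, with medians of 7 and 24 reads. The 12-base RLTR17D_Mm piece in Tex14 matched an 837-base RLTR13C2 locus of its intron in 31 of 41 libraries, with medians of 36 against 36 reads in F1 P4 and 35 against 34 in F1 P5. The counts at these 3 loci did not scale with locus length. Of the member loci in introns with at least 2 loci, 16 of 111 (14.4%) shared their values with another locus of the intron in every library, against 56342 of 218284 (25.8%) over all protein-coding genes. Whether spliced reads were counted across introns is not given in the sources used here.

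Depth set how firmly the values can be read. Recovered reads at LTR loci were 3835481 to 6304053 per F1 germline library, 2824806 to 3830400 in F1 P6 and 4104928 to 7760769 in F3 P6. The F3 germline libraries ranged from 246520 to 8161548, and 4 of 18 held fewer than 2000000 (P4 TBT 5 and 9, P5 TBT 5 and P5 DMSO 2). The share of reads at loci outside genes was 1.83 to 2.51% in F1 P4, 3.84 to 7.34% in F1 P5, 2.05 to 12.1% in F3 P4 and 6.06 to 31.1% in F3 P5. Summed over 5 germ cell markers that are not members and hold loci, of 8 listed, libraries had 728 to 866 reads per 1000000 reads at LTR loci (rpm) in F1 P4, 492 to 682 in F1 P5 and 0.652 to 1.86 in F1 P6, where Stra8 was at 0. In F3 the germ cell sums were 131 to 901 rpm in P4 and 14.5 to 606 in P5. The 7 Sertoli cell markers with loci, of 12 listed, summed to 1.56 to 40.7 rpm in F1 P4, 8.71 to 107 in F1 P5 and 521 to 779 in F1 P6.

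The first question was whether the loci follow the sorted cell type. Ddx4, Dazl, Tex14 and Pou5f1 were read far above the somatic cells in germline libraries, with 1 shallow library as an exception, and Kit was read in both. Germline and P6 libraries were deposited in separately normalised tables, so levels are given side by side as mean rpm over the distinct signals of a gene, without a test. The sort on Pou5f1-driven EGFP separated these populations, so the Pou5f1 values are not independent of it. The transgene itself carries Pou5f1 regulatory sequence. Whether it includes this locus is not given in the sources used here, and reads from the 2 copies cannot be told apart. In bulk samples, fewer cells of a type and less RNA per cell cannot be told apart.

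Ddx4 had a median of 80.1 rpm and a lowest value of 57.6 over 23 F1 germline libraries, against a median of 0.177 and a highest value of 0.522 in F1 P6. The ratio of these medians was 452. In F3 the Ddx4 medians were 46.96 rpm in 18 germline libraries and 0.148 in P6, a ratio of 317, and 17 of 18 germline libraries lay above every P6 library. The exception was P5 TBT library 5, the shallowest, in which neither Ddx4 nor Dazl had a read. Among the F3 P6 libraries, DMSO libraries 3 and 4 stood apart with 83 and 134 Ddx4 reads (1.35 and 1.78 rpm), where the other 7 had at most 21 reads and 0.222 rpm. The 5 germ cell markers that are not members summed to 11.6 and 8.46 rpm in these 2 libraries, against a median of 0.533 rpm over the 9 F3 P6 libraries, and their part in the result was not tested. Without them the F3 P6 median of Ddx4 was 0.112 rpm and the ratio 420.

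Dazl had 193 rpm in the median F1 germline library, whereas F1 P6 libraries held 0 to 4 Dazl reads each and 4 of 12 held none. In F3 the Dazl median was 184 rpm, and P6 libraries held 0 to 23 reads with none in 5 of 9. DMSO libraries 3 and 4 held 11 and 23 of these, and the other 7 at most 2. Tex14 had 7.80 rpm in F1 germline cells against 0.129 in P6 (60.5 times), and 6.15 against 0.0906 in F3 (67.8 times), with all germline libraries above all P6 libraries in both generations. The Pou5f1 locus had 76.8 rpm in F1 and 157 rpm in F3 germline libraries, and in P6 it held at most 6 reads in F1 (none in 7 of 12) and at most 13 in F3 (none in 5 of 9). A P6 count of 0 allows up to 3 reads.

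Kit differed from the others in its distance from the somatic level. Its median was 3.20 rpm in F1 germline libraries against 1.14 in F1 P6 (range 0.325 to 1.60), and 22 of 23 germline libraries exceeded every P6 library. In F3 the Kit medians were 2.19 and 1.56 rpm, and 12 of 18 germline libraries exceeded every P6 library. Split by population, Kit had 2.34 rpm in P4, 6.73 in P5 and 1.14 in P6 in F1, and 1.32, 5.55 and 1.56 in F3. P4 was thus the germline population near the somatic level. Kit is also known from interstitial cells and mast cells, and P6 held 11 to 67 Kit reads per F1 library.

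**Figure D1:**
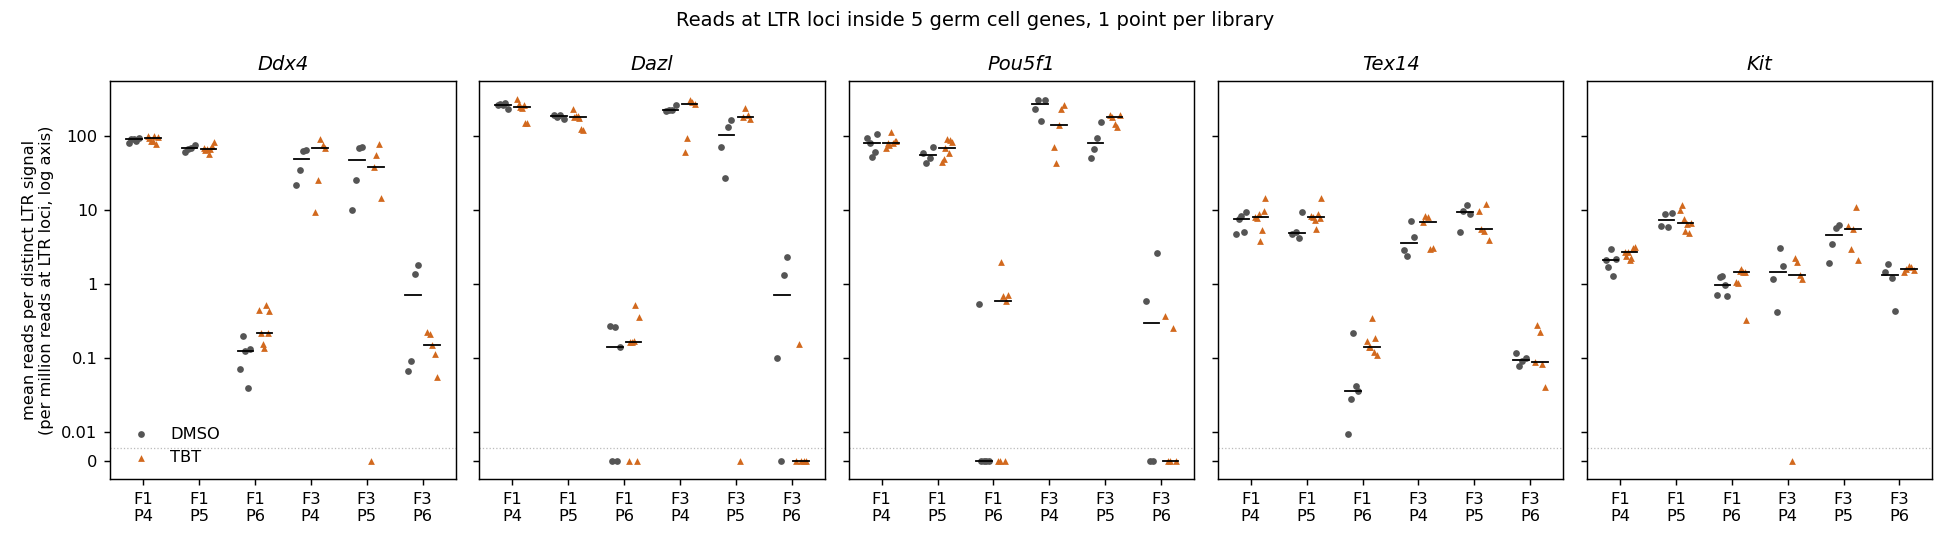
Mean rpm over the distinct LTR signals of each gene (log axis, with 0 drawn on the bottom line), by generation and sorted population, 1 point per library, with DMSO and TBT marked and lines at the medians. Ddx4, Dazl, Tex14 and Pou5f1 drop from P4 and P5 to P6, while the Kit points of P6 (0.325 to 1.60 in F1) lie near those of P4 and below those of P5.

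The second comparison, between the P4 and P5 germline populations of F1, split the genes. Kit rose in P5, whereas Ddx4, Dazl and Pou5f1 fell, and Tex14 did not pass the test. Deposited CPM values share one table here and were tested with limma across 7994 protein-coding genes that hold LTR loci. Of those genes 18.6% were called higher and 31.2% lower in P5, so 1 member higher and 3 lower of 5 has to be read against that background. Markers of several somatic cell types moved with this comparison when exposures were pooled. The median summed level of the Sertoli cell list was 6.85 rpm in F1 P4 and 19.08 in F1 P5. For 5 of 8 fetal Leydig cell markers it was 6.60 (2.73 to 97.8) and 15.8 rpm (3.99 to 33.2), and for 6 of 6 endothelial markers 2.97 (2.31 to 4.07) and 5.40 rpm (3.01 to 7.83). Medians of the other lists were 13.3 and 14.4 rpm for peritubular and interstitial mesenchymal cells, 0.640 and 0.993 for macrophages, and 11.6 and 10.03 for red blood cells. Sertoli and endothelial medians were higher in P5 within both exposures. Within DMSO libraries the Leydig cell median went from 45.5 to 22.3 rpm and the mesenchymal one from 22.5 to 20.2. Within TBT libraries they went from 4.62 to 15.8 and from 12.6 to 13.04 rpm. The germ cell markers that are not members went from 788 to 562 rpm, and the part of these cells in the result was not tested.

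Kit had 1.23, 2.49 and 3.63 CPM (lowest, median and highest of 12 P4 libraries) and 5.01, 7.12 and 10.5 CPM in 11 P5 libraries. The populations did not overlap. The fitted difference was 1.44 on the log2 scale (SE 0.152, adjusted p = 2.53e-08, limma), a 2.71-fold higher level in P5. It was 1.66 within DMSO and 1.22 within TBT libraries.

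Ddx4 had 83.4, 93.7 and 109 CPM in P4 and 55.6, 62.2 and 90.5 CPM in P5. Its ranges overlapped at a few libraries, and its level fell by 0.53 on the log2 scale (SE 0.0824, adjusted p = 9.08e-06, limma). Dazl had 167, 268 and 319 CPM in P4 and 132, 169 and 205 CPM in P5. It fell by 0.61 (SE 0.104, adjusted p = 3.09e-05, limma). The Pou5f1 locus had 52.4, 86.1 and 121 CPM in P4 and 40.1, 55.5 and 94.2 CPM in P5, and fell by 0.54 (SE 0.158, adjusted p = 0.00596, limma). Tex14 had 4.01, 8.10 and 16.7 CPM in P4 and 3.86, 7.02 and 15.6 CPM in P5, a log2 difference of -0.22 (SE 0.206, adjusted p = 0.382, limma).

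Scaling bore on the size of these differences and not on their direction. The median of all genes was -0.15 under the deposited scaling, and -0.01 when each library was set to the same total. On that second scale, Kit differed by 1.58, Ddx4 by -0.38, Dazl by -0.46, Pou5f1 by -0.39 and Tex14 by -0.08, and the 4 calls stayed. Of all calls, 37.4% were higher in P5 under the deposited scaling, 56.0% with equal totals and 54.0% with median-ratio scaling. The P5 minus P4 difference itself did not differ between exposures for any member (limma interaction, adjusted p = 0.999 for each of the 5). For Pou5f1 the difference was -0.60 within DMSO libraries (adjusted p = 0.0838, limma) and -0.49 within TBT libraries (adjusted p = 0.0475, limma).

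Single loci were tested as well. A gene's level is the mean of these signals, and loci of one intron share reads, so their calls are not independent of the gene calls. All 12 distinct Kit signals were called higher in P5, together with 1 of 86 in Tex14. All 15 of Ddx4, both of Dazl and the 1 of Pou5f1 were called lower. Over all 101401 loci tested, 17% were called higher and 20.3% lower. Of all locus calls, 45.7% were higher in P5 under the deposited scaling, 65.2% with equal totals and 63.0% with median-ratio scaling. Whether libraries of one label number came from one fetus is not given in the sources used here. With that number as a block, 39 Tex14 signals were called lower and 1 higher, where 42.7% of all loci were called. The Tex14 gene value there was -0.28 (adjusted p = 0.0507, limma). The Ddx4 loci moved nearly as one, with log2 differences of -0.60 to -0.44. The one Tex14 locus that rose, an 883-base RMER17A2 repeat at chr11:87467833-87468715, had 18, 52.5 and 86 reads in P4 and 38, 87 and 134 in P5 (log2 difference 0.59, SE 0.188, adjusted p = 0.0129, limma).

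The same RMER17A2 locus had 0, 18 and 83 reads in F3 P4 and 16, 90 and 225 in F3 P5. It was also the Tex14 signal with the highest mean in the germline. The corresponding leading signals were an intronic MTD repeat at chr13:112612245-112612584 in Ddx4 (log2 difference -0.57, adjusted p = 7.82e-06, limma), an exonic ORR1C1 repeat at chr17:50286007-50286127 in Dazl, the MT2_Mm repeat in Pou5f1 and a RLTR20C1_MM repeat at chr5:75655617-75655735 in Kit. This last locus lies in the 3′UTR of Kit, and held 23, 41 and 89 reads in F1 P4, 74, 101 and 207 in P5, and 1, 10 and 23 in P6.

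**Figure D2:**
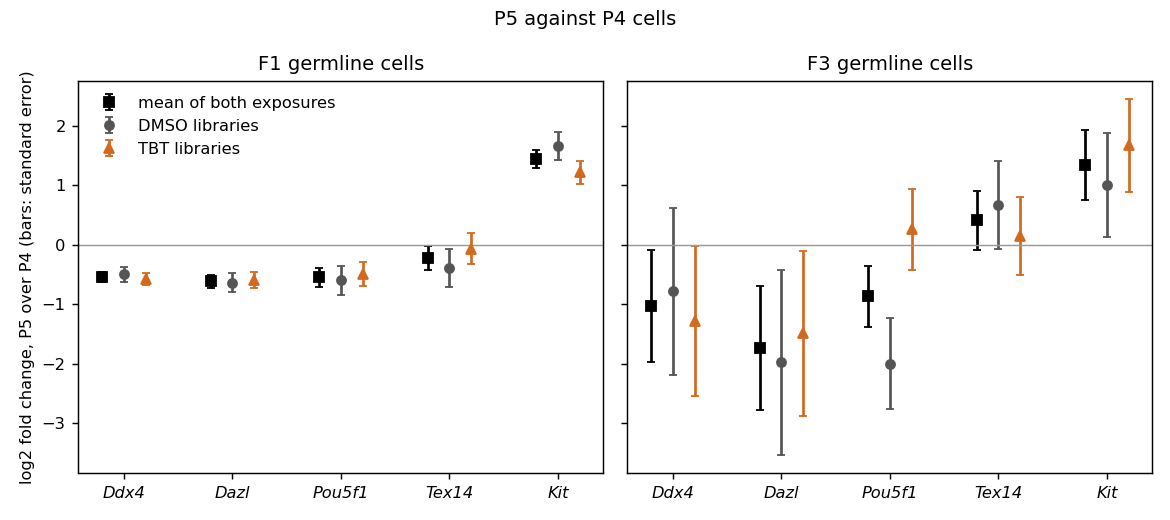
Fitted log2 difference between P5 and P4 for each gene, in F1 and F3 germline cells, over all libraries and within DMSO and TBT libraries; bars are standard errors. In F1 the Kit points lie above 0 (1.22 to 1.66) and those of Ddx4, Dazl and Pou5f1 below it, and in F3 the bars are several times wider.

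Within Kit, the intronic signals differed more between P5 and P4 than the exonic ones. The 9 intronic signals had log2 differences of 1.74 to 2.54 and the 3 exonic signals 0.95 to 1.05. Thus the MTD repeat in the first intron held 0, 1.5 and 6 reads in F1 P4, 6, 13 and 29 in P5, and 0, 1 and 4 in P6. The RLTR10-int locus at chr5:75643080-75644967 held 1, 7 and 12 reads in P4 and 3, 39 and 70 in P5.

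The intronic share of all Kit reads was 5.00, 37.9 and 56.2% (lowest, median and highest) in F1 P4 and 33.8, 56.0 and 63.6% in F1 P5. The mean difference was 18.47 percentage points (two-sided permutation test, p = 0.0021, adjusted p = 0.0034 over 8 tests). In F1 P6 this share was 44.9, 66.5 and 90.9%. In F3 the share was 0, 32.1 and 81.3% in 8 P4 libraries and 0, 47.8 and 100% in 9 P5 libraries, and did not pass (21.8 points, exact permutation p = 0.14). With each library left out in turn, the F3 difference ran from 15.6 to 29.3 points (exact permutation p from 0.036 to 0.26). It was largest, with the lowest p, without P4 TBT library 9. Some F3 shares rest on few reads. P4 DMSO library 2, P5 TBT library 5 and P5 DMSO library 1 held 14, 18 and 46 Kit reads, with shares of 0, 100 and 95.7%. P4 TBT library 5 held no Kit read and was left out of the F3 share.

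In F3 the P5 against P4 comparison called none of the 5 genes. Kit had 0, 1.72 and 3.67 CPM in P4 and 1.43, 3.59 and 11.1 CPM in P5, a log2 difference of 1.34 (SE 0.586, unadjusted p = 0.0323, adjusted p = 0.597, limma), close to the value of F1 with a larger SE. Ddx4 had 5.33, 75.3 and 109 CPM in P4 and 0, 46.4 and 79.0 in P5 (log2 difference -1.03, adjusted p = 0.785, limma). Dazl had 34.5, 305 and 374 CPM in P4 and 0, 172 and 279 in P5 (-1.73, adjusted p = 0.690, limma). Pou5f1 had 34.7, 303 and 417 CPM against 44.96, 133 and 276 (-0.86, adjusted p = 0.690, limma), and Tex14 had 3.18, 3.96 and 9.51 CPM against 2.31, 6.62 and 13.1 (0.41, adjusted p = 0.831, limma). With each library left out in turn the difference ran from -1.40 to -0.28 for Ddx4 and from -2.02 to -0.75 for Dazl, each nearest to 0 without P5 TBT library 5. The F3 Sertoli cell median was 2.40 rpm (0 to 4.47) in P4 and 16.4 (0 to 32.1) in P5. Fetal Leydig cell medians were 2.57 and 3.81 rpm, and endothelial medians 1.74 and 4.91. They were 15.9 and 16.2 rpm for mesenchymal cells, 0.408 and 0.956 for macrophages, and 14.96 and 9.44 for red blood cells. The germ cell markers that are not members had 783 and 496 rpm. The part of these cells in the F3 results was not tested.

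Few genes of any kind were called in F3, 0.149% higher and 0% lower of 7373. Kit was the 1 member at an unadjusted p under 0.05 with limma, and 1 member was also under it with the edgeR likelihood ratio test and with DESeq2 but 0 with the edgeR quasi-likelihood test. Over all genes, this threshold took 7.88% with limma, 6.48% with the likelihood ratio test, 7.98% with DESeq2 and 4.73% with the quasi-likelihood test. Of 111 member loci tested 0 passed, against 0.985% higher and 0.0112% lower over all loci, and 5 had an unadjusted p under 0.05, against 10.5% of all loci. Without the 4 libraries of fewer than 2000000 reads, Dazl passed with a log2 difference of -0.98 (adjusted p = 0.0299, limma), where 3.82% of all genes were called. The other values there were 1.33 for Kit (adjusted p = 0.0835, limma), -1.08 for Pou5f1 (adjusted p = 0.0590, limma), -0.77 for Ddx4 and 0.60 for Tex14.

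Of 68 other germ cell genes in 4 lists, 37 could be tested between P5 and P4 in F1, and 6 were higher and 16 lower in P5, beside 18.6% higher and 31.2% lower of all genes tested. Among RNA-binding and piRNA-linked genes, 11 of 17 were tested and 8 fell, with a list median of -0.56 beside -0.15 for all genes. The 8 were Tdrd1, Tdrd5, Tdrd6, Tdrd9, Mael, Morc1, Piwil2 and Piwil4, most of them proteins of the piRNA pathway, which silences transposons. The Tudor protein gene Tdrd1 fell by 0.68 (adjusted p = 0.000182, limma). The 1 that rose, Mov10l1, encodes a helicase of piRNA production (1.85, adjusted p = 2.68e-11, limma).

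Of 15 meiosis genes tested, 3 rose and 4 fell, with a list median of -0.15. Sycp1 and Sycp2, which encode synaptonemal complex partners of SYCP3, rose by 1.07 (adjusted p = 6.72e-08, limma) and 1.16 (adjusted p = 8.90e-06, limma). Of 9 spermatogonial genes tested, 2 rose and 3 fell (list median -0.20). The 2 were Cdh1, an adhesion molecule of spermatogonia (1.98, adjusted p = 1.87e-06, limma), and Ret, a receptor subunit for GDNF (1.31, adjusted p = 2.27e-05, limma). Of 2 germline and pluripotency regulators tested, Lin28a, an RNA-binding regulator of let-7, fell by 0.58 (adjusted p = 0.0274, limma; list median -0.45). In F3, 0 of 36 tested genes of the 4 lists passed with limma, and 5 had an unadjusted p under 0.05, against 7.88% of all genes.

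The genes whose levels ran most alike with a member over the 23 F1 germline libraries were found by Pearson r of log2 levels among 7994 genes, and the value over the 18 F3 libraries is given beside it. These libraries share the P4 and P5 split and differ in depth, so the r values are descriptions. For Kit they were Ankle2 (0.966 in F1, 0.474 in F3), Mov10l1 (0.951, 0.922) and Ptk7 (0.938, 0.721). Mov10l1 was therefore alike in both generations and Ankle2 less so in F3. For Ddx4 they were Pkm (0.955, 0.849), Mtrex (0.951, 0.931) and Anapc4 (0.951, 0.792), and for Dazl Stk39 (0.955, 0.910), Sdcbp (0.951, 0.932) and Pawr (0.941, 0.619). Tex14 was nearest to Ints7 (0.902, 0.508), Dhx8 (0.859, 0.591) and Trp53bp1 (0.853, 0.687), and Pou5f1 to Rrp9 (0.909, 0.834), Cnot11 (0.900, 0.918) and Srsf9 (0.898, 0.857).

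The reads of an intron were also divided into the level of the lowest locus of the intron, here called the intron floor, and the reads above it. This division was chosen after the values had been seen. It used introns with at least 2 loci: 10 introns with 80 loci in Tex14, 5 with 17 in Ddx4, 4 with 14 in Kit and 34507 with 245436 over all protein-coding genes. Reads above the floor are those in excess of the lowest locus, whether at 1 or at several other loci of the intron.

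The share of reads above the floor was higher in P5 than in P4 for Tex14 and Ddx4 in both generations, and did not pass the test for Kit. In Tex14 it was 0.389, 1.64 and 5.56% (lowest, median and highest) in F1 P4 and 2.05, 8.53 and 17.5% in F1 P5, and 0.686, 5.85 and 8.55% in F3 P4 and 8.003, 29.7 and 70.3% in F3 P5. The mean differences were 7.12 percentage points in F1 (two-sided permutation p = 8e-05) and 29.9 points in F3 (exact permutation p = 8.2e-05).

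In Ddx4 the share was much smaller, at 0, 0.0880 and 0.199% in F1 P4 and 0.423, 1.13 and 1.96% in F1 P5, with no overlap. In F3 it was 0 to 0.728% with a median of 0 in P4, and 0.770, 2.18 and 19.08% in 8 P5 libraries, P5 TBT library 5 having no reads to divide. The differences were 1.11 points in F1 (permutation p = 2e-05, the smallest that 100000 permutations can give) and 4.78 points in F3 (exact permutation p = 8.2e-05, the smallest possible with these group sizes). The F3 value was 2.75 points without P5 DMSO library 1. All 4 differences of Tex14 and Ddx4 had an adjusted p of 0.00016 over 8 permutation tests. These tests did not pair libraries of one label number. With the numbers as pairs, the sign-flip p was 0.00098 for both genes in F1. In F3 the sign-flip p was 0.0039 for Tex14 and 0.0078 for Ddx4.

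In Kit the share was 0, 0 and 11.1% (lowest, median and highest) in F1 P4 and 1.18, 2.45 and 6.99% in F1 P5, and the populations overlapped. The mean difference was 0.96 points (permutation p = 0.44, adjusted p = 0.50). In F3 it was 0, 3.92 and 100% in 7 P4 libraries and 0, 3.71 and 77.8% in 8 P5 libraries, the others having no reads to divide (3.70 points, exact permutation p = 0.99).

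Over all protein-coding genes the median share was 2.81% in F1 P4 and 4.95% in F1 P5, and 3.24% and 8.07% in F3. Their ranges did not overlap in F1 (2.63 to 3.09% against 3.61 to 6.02%). The share of reads at loci outside genes moved with this measure. P5 DMSO libraries 1 and 2 and P5 TBT library 5 of F3 had 23.5, 27.9 and 31.1% of reads outside genes, and 53.6, 69.7 and 70.3% of their Tex14 reads were above the floor. Its part in the result was not tested. For 1 Tex14 locus that also lies in the processed pseudogene Gm11489, reads of the 2 genes cannot be told apart, and without it the Tex14 differences were 5.71 points in F1 and 28.3 in F3.

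**Figure D3:**
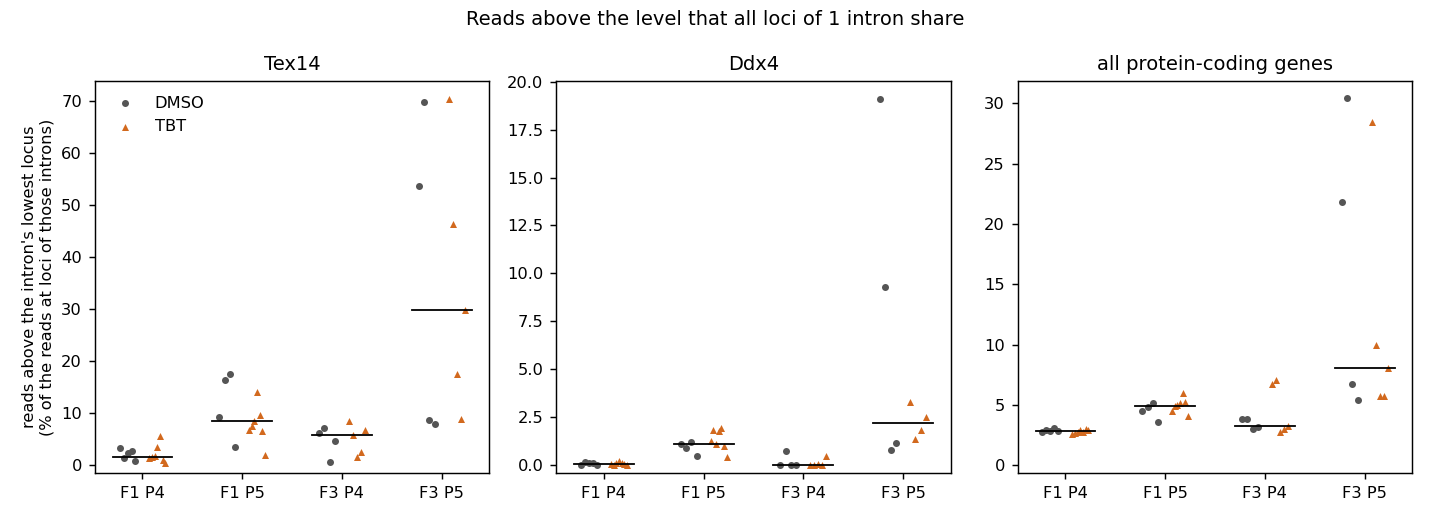
Share of reads above the lowest locus of each intron (%), per library, for Tex14, Ddx4 and all protein-coding genes, in F1 and F3 P4 and P5, with DMSO and TBT marked and lines at the medians. P5 points lie above most P4 points in every panel, from medians of 1.64 to 8.53% for Tex14 in F1 and 0.0880 to 1.13% for Ddx4.

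Along the gene, intron floors in Tex14 were lower near its start than at its end, but did not rise steadily, and in F3 they were lower at 43.3 kb than at 13.1 kb. The intron at 13.1 kb from the start had a median floor of 6.5 reads in F1 P4 and 13 in P5, and that at 43.3 kb had 35 and 35. At 140 kb the floors were 54 and 59 reads, and at 149 kb 41 and 40. In F3 the corresponding P4 and P5 floors were 11 and 14, 9 and 7, 53 and 60, and 50 and 50 reads. Ddx4 floors were also higher downstream, apart from a dip at 28.6 kb. They were 248 reads in P4 and 218 in P5 at 4.72 kb and 567 and 472 at 43.6 kb in F1, and 178 and 104 against 496 and 217 in F3. The cDNA was primed on poly(A) tails, and the part of priming in this slope was not tested.

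The slope was close in P4 and P5 of F1. Taking the first 3 and last 3 introns of Tex14 together, the last 3 held 61.9, 72.5 and 81.4% of the floor reads in P4 and 64.0, 71.7 and 82.3% in P5. In Ddx4 they held 61.0, 62.6 and 65.6% in P4 and 58.5, 62.2 and 64.8% in P5. The F3 ranges were wider. For Tex14 they were 76.2, 81.1 and 100% in P4 and 49.3, 69.6 and 100% in P5. For Ddx4 they were 0, 62.9 and 68.2% in P4 and 24.4, 61.1 and 70.6% in the 8 P5 libraries with reads. The 4 lowest Ddx4 shares were 0 and 10.5% in P4 TBT libraries 5 and 9 and 24.4 and 36.8% in P5 DMSO libraries 1 and 2, of which 3 were under 2000000 reads.

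**Figure D4:**
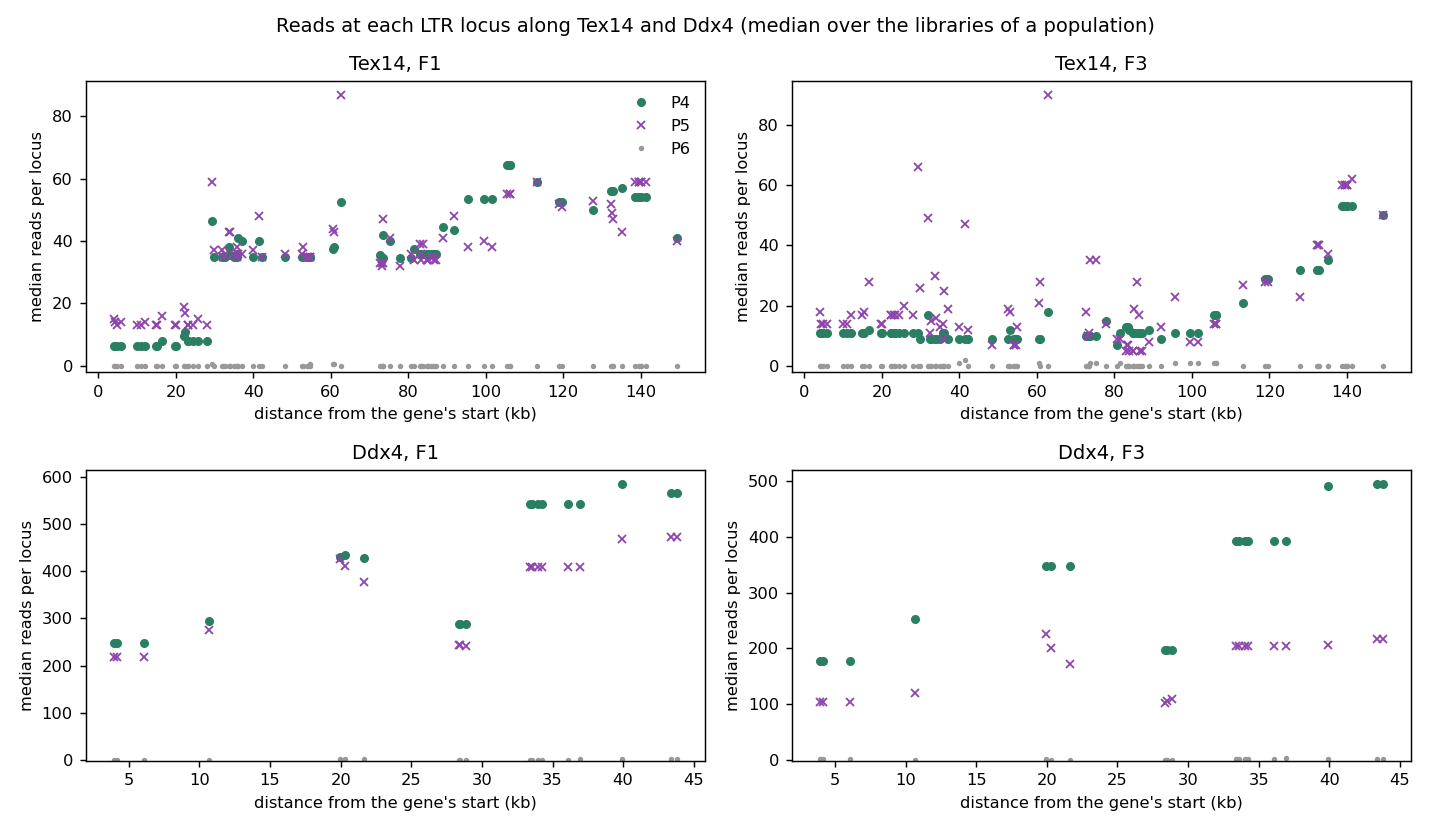
Median reads at each LTR locus of Tex14 and Ddx4 against its distance from the start of the gene (kb), for P4, P5 and P6 cells of F1 and F3. In P4 the loci of one intron form level steps, from 6.5 reads at 13.1 kb to 54 at 140 kb in F1 P4 cells for Tex14, and P6 points lie near 0.

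The third comparison asked whether descendants of TBT-exposed dams differed from those of DMSO-exposed dams. None of the member genes that could be tested passed with limma, edgeR or DESeq2, which were 5 in each germline population of each generation, 1 in F3 P6 and 0 in F1 P6. Over all genes limma called 0% in both germline populations of both generations, 0.0689% in F1 P6 and 0.0123% in F3 P6. The edgeR likelihood ratio test called 18 genes in F1 P4, 21 in F1 P5 and 0 in either F3 germline population, and DESeq2 called 12, 19, 1 (P4) and 0 (P5). Of the loci, limma called 0% in F1 P4 and in both F3 germline populations, 0.0106% in F1 P5, 0.00341% in F1 P6 and 0.0343% in F3 P6, and none of these was a member. The edgeR likelihood ratio test called 86 loci in F1 P4, 388 in F1 P5, 3 in F3 P4 and 3326 in F3 P5 and DESeq2 1, 150, 90 and 480, again without a member. By unadjusted p under 0.05, 1 of 112 member loci in F1 P4, 43 of 116 in F1 P5, 1 of 3 in F1 P6, 1 of 109 in F3 P4, 0 of 116 in F3 P5 and 1 of 9 in F3 P6 stood out with limma. Over all loci tested, the same threshold took 7.09, 6.89, 3.68, 1.65, 1.01 and 7.96% in that order.

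The 43 loci of F1 P5 were all in Tex14. Tex14 had 4.52, 4.70, 3.86 and 9.14 CPM in the 4 DMSO libraries and 5.35, 7.54 and 15.6 CPM (lowest, median and highest) in 7 TBT libraries, with overlapping groups. The log2 difference was 0.58 (SE 0.259, unadjusted p = 0.0386, adjusted p = 0.699, limma). With a random effect of the first label number, 0 of the 5 member genes had an unadjusted p under 0.05 in F1 P5 (1 without it). Of the Tex14 signals, 86 of 86 were higher in TBT. These signals share reads within introns and are not independent. In F1 P4 the Tex14 difference was 0.26, in F3 P4 0.08 and in F3 P5 -0.45, and none passed.

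Kit differed by 0.44 in F1 P4 (SE 0.225, unadjusted p = 0.0685, adjusted p = 0.668, limma), from 1.23 to 2.95 CPM in 5 DMSO libraries to 2.27 to 3.63 CPM in 7 TBT libraries. In F1 P5 the Kit difference was close to 0 (SE 0.214). Kit was the 1 member gene that passed the filter on low values in F3 P6, where it differed by 0.46 (adjusted p = 0.677, limma). The 2 lowest Kit values of F3 P6 came from DMSO libraries 3 and 4 (1.20 and 0.432 rpm), those with the most germ cell marker reads, and the other 7 libraries had 1.45 to 1.83 rpm. Without these 2 libraries the Kit difference was -0.03 (SE 0.224, adjusted p = 0.979, limma), and with each library left out in turn it ran from 0.10, without DMSO library 4, to 0.67. No member gene passed that filter in F1 P6, so their values there are given without it. Ddx4 had 0.0385, 0.121 and 0.200 CPM (lowest, median and highest) in 5 DMSO and 0.136, 0.219 and 0.525 CPM in 7 TBT libraries, or 2 to 30 reads (log2 difference 0.53, unadjusted p = 0.0210, adjusted p = 0.911, limma). Tex14 had 0.00907, 0.0366 and 0.212 CPM against 0.119, 0.141 and 0.339 CPM (0.39, unadjusted p = 0.0294, adjusted p = 0.911, limma). The groups overlapped for both genes. All 5 members were higher in TBT, 2 of them at an unadjusted p under 0.05 against 4.09% of all genes in that fit. The germ cell markers that are not members had medians of 0.778 rpm (0.652 to 1.86) in DMSO and 1.26 rpm (0.862 to 1.73) in TBT libraries, and their part in these values was not tested. In the germline, Ddx4 differed by 0.11 and 0.04, and Dazl by -0.14 and -0.09, in F1 P4 and F1 P5. The SEs of these 4 values, 0.0919 to 0.150, are those of groups of 4 to 7 libraries. Somatic marker medians differed between these F1 germline groups. In DMSO and TBT libraries the Sertoli cell list had 26.5 and 6.84 rpm in P4, and 61.2 and 14.9 in P5. The fetal Leydig cell list had 45.5 and 4.62 rpm in P4, and 22.3 and 15.8 in P5. Mesenchymal medians were also lower in TBT, but in P4 endothelial and macrophage medians were higher (2.88 and 3.07 rpm, 0.581 and 0.738 rpm). The part of these cells in the exposure differences was not tested.

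In F3 P4 the Pou5f1 locus had 322, 417, 191 and 388 CPM in the 4 DMSO libraries and 40.6, 34.7, 169, 303 and 334 CPM in the 5 TBT libraries. The 2 lowest TBT values came from libraries 5 and 9, both of fewer than 2000000 reads. The log2 difference was -1.40 (SE 0.700, unadjusted p = 0.0699, adjusted p = 0.756, limma), beside a median of -0.70 over all genes in this comparison. Without those 2 libraries it was -0.29 (SE 0.323, unadjusted p = 0.383, adjusted p = 0.692, limma). In F3 P5 Pou5f1 had 49.7, 45.9, 107 and 161 CPM in DMSO and 44.96, 219, 169, 133 and 276 CPM in TBT libraries, a difference of 0.86 (SE 0.747, adjusted p = 0.9997, limma). The P5 minus P4 difference of Pou5f1 was -1.99 in DMSO and 0.27 in TBT libraries of F3, and these did not differ after adjustment (interaction 2.26, SE 1.02, unadjusted p = 0.0382, adjusted p = 0.997, limma).

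**Figure D5:**
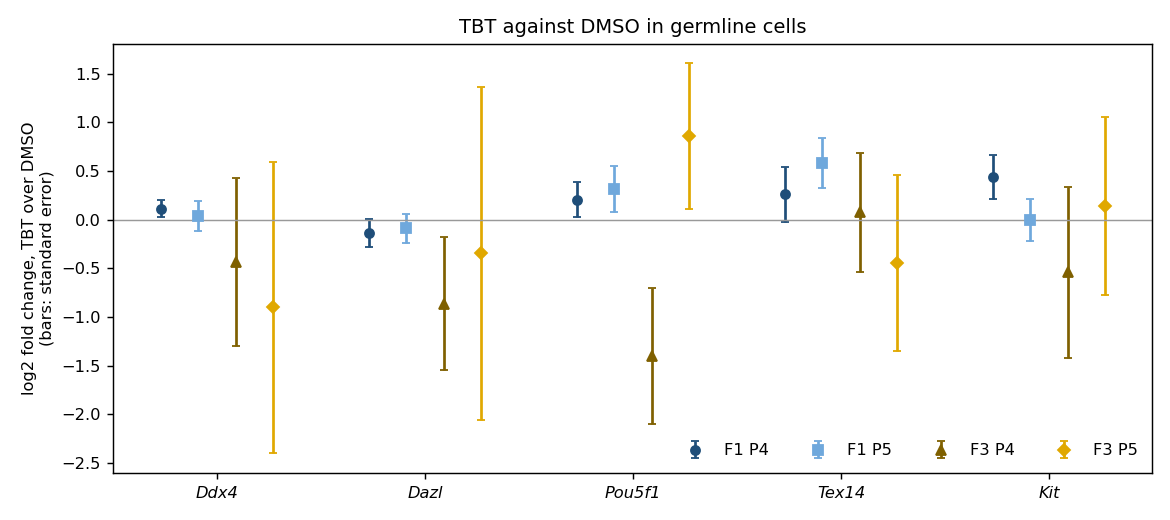
Fitted log2 difference between TBT and DMSO libraries for each gene in F1 and F3 P4 and P5 cells; bars are standard errors. F1 points lie between -0.14 and 0.58, and F3 points have wider bars and range from -1.40 to 0.86.

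The other germ cell genes gave no calls between exposures either, with 0 of 36, 41, 7, 33, 34 and 9 tested in F1 P4, P5 and P6 and F3 P4, P5 and P6 by limma, and 3, 4, 1, 1, 0 and 2 at an unadjusted p under 0.05. Over all genes tested, 7.84, 6.75, 4.30, 2.06, 0.257 and 9% had such a p. Methylated-DNA capture of P6 cells, counted in 100-bp windows, was tested with edgeR's quasi-likelihood test over 34559 windows in F1 (3 DMSO and 4 TBT libraries) and 47563 in F3 (5 and 7) that passed the filter on low counts. It called 0.0318% of windows in F1 and 0% in F3. Inside the gene bodies, 10 windows passed the filter in F1 (7 in Kit, 2 in Tex14 and 1 in Ddx4) and 9 in F3 (5, 3 and 1), and 0 were called. By unadjusted p under 0.05 there were 0 in F1 and 1 in F3, against 5.01 and 5.19% of all windows. That window, at chr5:75622201-75622300 in Kit, held 12, 23 and 26 counts in DMSO and 25, 29 and 31 in TBT libraries, with overlapping groups (log2 difference 0.43, unadjusted p = 0.0154, adjusted p = 0.940, edgeR). No window lay within 500 bases of any member's start. A window 885 bases from the Kit start in F1 and another 836 bases from the Dazl start in F3 held 0 to 2 counts per library. Both failed the filter on low counts.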

How the data were processed

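RNA libraries of FACS-sorted E18.5 testis cells were made by the authors with an oligo(dT)-primed SMARTer kit and sequenced as read pairs. The authors trimmed reads with Trim Galore, aligned them to GRCm38 with STAR, and counted them at LTR loci of RepeatMasker with a modified ERVmap pipeline. The handling of strand, of reads with several alignments and of spliced reads is not given in the sources used here, nor are tool versions. The deposited values are a TMM-scaled signal in CPM per locus, in 4 separately normalised tables. Methylated-DNA capture of P6 cells was deposited by the authors as counts per 100-bp window.

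Whole reads were recovered from the deposited signal (100% of values within 0.02 of a whole read). A gene's level is its mean over distinct signals, and rpm are recovered reads per 1000000 reads at LTR loci. One unit is the median value of 1 read (0.229 CPM in F1 and 0.264 CPM in F3 germline fits). Features averaging 5 units or more were tested with limma 3.58.1 (trended variance, R 4.3.3) on log2(value + 1 unit), which understates changes of low genes, with Benjamini-Hochberg adjustment over all features tested and a threshold of 0.05. Groups were fitted within one table only. Permutation tests (scipy 1.17.1) were two-sided and exact, or used 100000 permutations. Gene bodies came from GENCODE for GRCm38, and positions were written 1-based. Fits were tested on simulated data with known changes.

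Alternatives were other pseudocounts, filters, scalings and gene levels, edgeR 4.0.16 (quasi-likelihood and likelihood ratio) and DESeq2 1.42.0 on recovered reads, a replicate block, and leaving out shallow libraries or each library in turn. Named were the 6 genes, the leading signal of each, every member past the threshold, the 2 largest changes of each list and the 3 genes most alike. The Kit intronic share, the intron floor and the capture windows in gene bodies (edgeR quasi-likelihood on the counts, TMM) were added after the values were seen. The members and lists were chosen with earlier results of these data known.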

Additional observations from a re-analysis of the deposited data

Results flagged for a closer look

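In groups of 4 to 10 libraries, 9 of 76 sets of member values had one library set apart from the rest by a gap above the critical value of Dixon's test, which chance alone does in about 1 in 20 groups. For Tex14 these were F1 P5 DMSO library 48-4 at 9.14 CPM (group median 4.61) and F1 P5 TBT library 47-5 at 15.6 CPM (group median 7.54), each the highest of its group, so the exposure difference in P5 rests on groups that both hold such a library. In P6 cells they were Tex14 in F1 DMSO library 3 (0.212 CPM, 70 reads over its signals) and F1 TBT library 8 (0.339 CPM, 86 reads) and, at 2 to 6 reads each, Pou5f1 in F1 DMSO library 1 (0.520 CPM) and F1 TBT library 7 (1.97 CPM), and Dazl in F3 TBT library 9 (0.155 CPM). F1 P6 TBT libraries 7 and 8 also had 6.79 and 6.95% of reads at loci outside genes, against 0.999 to 1.82% in the other 10 F1 P6 libraries. Without them limma called 3 genes (5 with them) and 0 loci (3 with them) in F1 P6, and 0 of 2 member loci had an unadjusted p under 0.05 (1 of 3 with them). The share of Ddx4 reads above the intron floor was set apart in F3 P4 DMSO library 2 (0.728%) and F3 P4 TBT library 8 (0.462%).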

How the results depend on the processing

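In F1, the 4 calls between P5 and P4 stayed under every alternative (4 with each library left out in turn), and no member gene or locus was called between exposures under any alternative run. Member loci called between P5 and P4 in F1 numbered 31, 30 to 45 with each library left out, and 70 with a replicate block on the label number (13 higher, 57 lower, of which 39 lower in Tex14). With that block, member genes within F1 DMSO libraries were 1 higher and 4 lower (1 and 2 without it), since Pou5f1 (adjusted p = 0.00155, limma) and Tex14 (adjusted p = 0.0489, limma) then passed. Calls rose among all genes too. Over both exposures, 56% of all genes were called with the block and 49.8% without it. The numbers were not taken as pairs in the main tests, because the sources used here do not say what they mark. P4 and P5 libraries of one number had deviations with r of -0.01 to 0.41 in F1 (7 of 11 over 0.1) and -0.18 to 0.51 in F3 (7 of 9). Of the P5 libraries, 6 of 11 and 6 of 9 correlated best with their own number, so a pairing remains possible. With the numbers as pairs, the sign-flip test of the floor shares gave mean differences of 7.18 and 29.9 points for Tex14, 1.11 and 4.76 for Ddx4 and 0.79 and 6.68 for Kit, and of the Kit intronic share 15.8 and 15.6 points, in F1 and F3.

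Several F3 values moved without the libraries of fewer than 2000000 reads, which also had 11.4 to 31.1% of reads outside genes, and the part of either was not tested. Without them, member calls between P5 and P4 were 1 gene and 7 loci (none with limma on all libraries), among 306 of 8008 genes and 4274 of 108399 loci called (11 and 977 on all libraries), Dazl differed by -0.98, and the Kit intronic share by 29.4 points (exact permutation p = 0.01). The edgeR likelihood ratio test called 2 member loci of F3 and DESeq2 3, of 7750 and 5477 called in all. Genes above all P6 libraries in every F3 germline library numbered 2, and 1 by the median over signals. With each library left out, floor differences were 6.30 to 7.84 (F1) and 25.4 to 33.2 (F3) points for Tex14 and 1.03 to 1.18 and 2.75 to 5.37 for Ddx4 and 0.55 to 1.80 and -4.44 to 17.5 for Kit (below 0 without P5 DMSO library 1 or P5 TBT library 8), and the Kit share difference 15.8 to 20.4 and 15.6 to 29.3.

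Exposure differences that changed sign never passed the test, and the cause was not tested. Kit in F1 P5 was 0.017 with both edgeR tests and DESeq2, and 0.0057 with a random effect of the first label number. Without shallow libraries, F3 P4 gave 0.85 for Ddx4, 0.26 for Dazl and 0.081 for Kit, and F3 P5 gave 0.28 for Ddx4 and 0.91 for Dazl. Both edgeR tests and DESeq2 gave 0.13 for Ddx4 in F3 P4 and 0.85 for Dazl in F3 P5, the latter 0.033 with a pseudocount of 4 units. Tex14 in F3 P4 was -0.56 by the median over signals, and Kit was -0.61 in F3 P5 without DMSO libraries 1 and 2 and -0.025 in F3 P6 without DMSO libraries 3 and 4, the last chosen after seeing the data. With each library left out, values ran from -0.039 to 0.11 for Ddx4 and -0.11 to 0.12 for Kit in F1 P5, in F3 P4 from -0.79 to 0.28 for Ddx4, -0.97 to 0.078 for Kit and -0.13 to 0.33 for Tex14, and in F3 P5 from -1.47 to 0.57 for Ddx4, -1.04 to 1.58 for Dazl and -0.20 to 0.48 for Kit. Among F1 differences that kept their sign, those in P4 ran from -0.20 to -0.047 for Dazl, 0.28 to 0.56 for Kit and 0.095 to 0.43 for Tex14. In F1 P5 they ran from -0.15 to -0.041 for Dazl and 0.42 to 0.84 for Tex14. The median of all genes in F3 P4 was -0.70, -0.41 with equal totals and 0.27 without shallow libraries. Windows of the methylated-DNA capture within 1000 bases of a start did not pass the filter on low counts. Windows in member gene bodies gave 0 calls under every alternative run, which were chosen after seeing the data. The alternative without that filter tested 22 windows in gene bodies in F1 and 24 in F3.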
